A study of Mus musculus with 28 samples.

Results

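GFP+ luminal cells are the cells of the mammary ductal lining that carry the green label in *Pdgfrα Cre R26mTmG* mice. Their response to estradiol plus progesterone (E+P) was measured by RNA sequencing of 7 of the 28 libraries of the series, 3 from E+P-treated and 4 from untreated mice. The libraries were chosen by their labels alone, as luminal, eGFP and either E+P or untreated, and 16538 of the 50600 genes in the count table passed the low-count filter. All mice were adult females on a C57BL/6 background and carried both alleles, so treatment was the labelled difference between the groups. In these mice Cre is constitutive: a cell that expresses *Pdgfra*-driven Cre once switches from membrane tdTomato to membrane GFP, and all its progeny keep the GFP. GFP therefore records ancestry and not present *Pdgfra* expression. Luminal cells were sorted as EpCAM+ cells with low CD49f after exclusion of endothelial, erythroid and leukocyte cells. Each mouse gave its own library, and the same mice also gave tdTomato+ luminal cells and GFP+ stroma, which are used below only for comparison. E+P was given to intact mice by slow-release pellets under the skin. The methods describe the pellets in a sentence on wild-type mice, and untreated mice were compared at a similar stage of the estrous cycle.

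The mammary epithelium responds to ovarian hormones through a minority of luminal cells that carry the estrogen receptor α (*Esr1*) and the progesterone receptor (*Pgr*). These hormone-sensing cells divide little in the adult gland, and they release paracrine signals such as RANKL (*Tnfsf11*), amphiregulin (*Areg*) and Wnt4 that drive division of neighbouring receptor-negative luminal progenitors and basal cells. Prolonged E+P exposure, as in early pregnancy, expands the lobules and starts alveolar differentiation, in which the prolactin receptor signals through Stat5a to milk genes.

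The untreated libraries held 8623383 to 14501957 reads counted on genes and the E+P libraries 13074184 to 21805128. At these depths 3 counts in a library correspond to 0.137 to 0.335 CPM (counts scaled to library size, here with TMM factors), a floor that covers counting error only. Over log2 CPM, the r of untreated libraries with each other was 0.950 to 0.965, that of E+P libraries was 0.966 to 0.979 and that of libraries of different groups 0.906 to 0.945. The 10 most abundant genes took 19.6% to 25.6% of the counts in untreated and 27.7% to 32.5% in E+P libraries. The 13 mitochondrially encoded genes in the count table summed to 6366 to 7872 CPM in untreated and 9364 to 11761 CPM in E+P libraries, 9 of the 11 tested lay above all untreated libraries, against 14.1% of all genes tested, and 1, *mt-Co1*, was called higher, against 3.17%. It was not called without E+P replicate 1. Leaving out a replicate, here and below, removed all libraries of that mouse from the fit. The paper gives RNA quality as a wide range over the sorted samples, with fragmentation time adjusted for poorer RNA, and not by library. The part of RNA quality and of these differences in the results was not tested.

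The luminal label was checked against marker genes. The luminal keratins *Krt8* (1836 ± 331 CPM, SD, n = 4, untreated; 1447 ± 195 CPM, n = 3, E+P) and *Krt18* (2276 ± 184 and 1587 ± 304 CPM) and the sorting antigen *Epcam* (946 ± 89.8 and 783 ± 72.4 CPM) were abundant in every library. The 10 luminal markers together summed to 6763 to 9079 CPM in untreated and 5204 to 6702 CPM in E+P libraries, and *Krt7* and *Elf3* among them were called lower. The basal keratin *Krt5* was at most 1.21 CPM, but other basal markers were higher, such as *Acta2* (17.6 ± 10.2 and 4.63 ± 1.28 CPM). The 10 basal markers summed to 62.1 to 132 CPM in untreated and 141 to 160 CPM in E+P libraries, and the 10 fibroblast markers to 51.9 to 134 CPM and 39.5 to 44.9 CPM. Of the basal, fibroblast, adipocyte, pericyte, endothelial, skeletal muscle, Schwann cell and erythrocyte markers, 9, 9, 2, 7, 5, 2, 5 and 1 were tested. By edgeR 0 of these were called, 12 had an unadjusted p under 0.05 and DESeq2 called 4. Of the 12, 4 were basal and 2 fibroblast markers. By level, 1 of the 9 fibroblast markers lay above every untreated library and 5 below, with a median log2 fold change of -1.46. Of the 9 basal markers, 3 lay above and 1 below. Of all genes tested, 14.1% lay above and 13.4% below. Over all 16538 genes tested, edgeR called 5.96%, 4940 had an unadjusted p under 0.05 and DESeq2 called 2035. The lysosomal gene *Cd68*, 1 of 3 tested of the macrophage list, was called lower, against 2.78% of all genes tested. This call was lost without any 1 mouse of either group. None of the T and B cell markers passed the filter. *Pdgfra* itself read 10.3 to 28.7 CPM in untreated and 3.60 to 7.83 CPM in E+P libraries, which did not overlap (log2 fold change -1.46, edgeR adjusted p = 0.0215).

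E+P changed 985 genes at an adjusted p under 0.01, or 5.96% of those tested. Of these, 525 rose (3.17% of genes tested, median log2 fold change 1.30) and 460 fell (2.78%, median -1.25), against a median of -0.03 over all genes tested. At least 2-fold changes were found in 322 of the genes that rose and 294 of those that fell, and at least 4-fold changes in 180 and 133. Protein-coding genes made up 501 of the genes that rose and 421 of those that fell. All 525 genes that rose were above every untreated library in all 3 E+P libraries, as were 14.1% of all genes tested, and 458 of the 460 that fell were below every untreated library, as were 13.4% of all genes tested. Where cells are measured in bulk, fewer cells of a type and less RNA per cell cannot be told apart, and this holds for each change below. Scaling by library size alone moved the median of all genes to -0.140 and the share of higher calls from 53.3% to 35.9%. The number of calls depended on single mice, though each such fit also had fewer libraries. Without untreated replicate 1 it was 464, and without E+P replicate 1, 2 or 3 it was 273, 169 or 356. The calls without untreated replicate 1, E+P replicate 1 and E+P replicate 3 held 448, 261 and 337 of the 985.

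**Figure D1:**
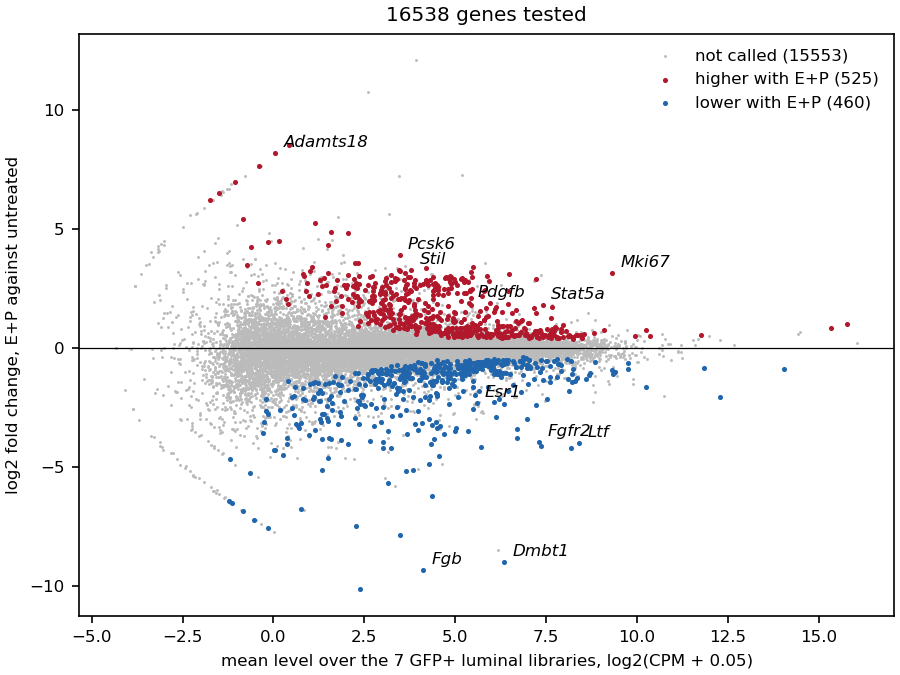
Log2 fold change of each of the 16538 genes tested (y axis, E+P against untreated) against its mean level over the 7 GFP+ luminal libraries (x axis, log2 of CPM plus 0.05). Red points are the 525 genes called higher, blue points the 460 called lower and grey points the genes not called, and the labelled *Mki67* stands at the upper right among the abundant genes while *Fgb* and *Dmbt1* stand at the bottom.

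Genes of DNA replication and mitosis rose together. Of 38 such genes tested, 31 rose, against 3.17% of all genes tested, and 0 fell, the median log2 fold change was 2.57, and all 38 were higher in every E+P library than in any untreated library. By DESeq2 36 of the 38 were called, against 2035 of all 16538 genes tested. Summed over the list, untreated libraries had 314 to 1004 CPM and E+P libraries 3098 to 3898 CPM. The 7 that were not called were *Plk1*, *Cenpf*, *Tyms*, *Ccna2*, *Cdk1*, *Ccne1* and *Ccne2*, with log2 fold changes of 1.15 to 2.82 and adjusted p of 0.0128 to 0.117. The count fell to 6 without E+P replicate 1, 6 without E+P replicate 2, 16 without E+P replicate 3 and 18 without untreated replicate 2, and was 14 in a fit of the 7 libraries alone and 19 without the low-count filter, with 0 genes called lower in each.

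*Mki67* (chr7:135689784-135716361, GRCm38), which codes for the proliferation antigen Ki-67, read 44.7, 60.5, 284 and 191 CPM in the untreated libraries and 1426, 1268 and 1216 CPM in the E+P libraries. The lowest E+P value was thus far above the highest untreated value, an 8.98-fold difference (log2 3.17 ± 0.65, SE, edgeR adjusted p = 0.00757). *Top2a*, the topoisomerase that untangles replicated DNA, rose from 39.7 ± 33.4 CPM (SD, n = 4) to 299 ± 32.1 CPM (n = 3). *Ccnb2*, a cyclin of mitotic entry, read 1.59, 1.34, 4.41 and 3.54 CPM without and 29.9, 26.7 and 18.7 CPM with hormones. *Bub1*, a kinase of the spindle checkpoint, rose from 2.34 ± 2.11 to 22.7 ± 1.33 CPM. *Mcm5*, a subunit of the replicative helicase, rose from 7.31 ± 4.96 to 58.8 ± 6.11 CPM, and *Pcna*, the sliding clamp of DNA polymerase, rose less, from 28.6 ± 4.69 to 54.4 ± 7.96 CPM (log2 0.93 ± 0.15, edgeR adjusted p = 0.00156). Untreated libraries were not alike in these genes, since replicates 3 and 4 were both above replicates 1 and 2 in 31 of the 38.

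Promoters of 30 genes of this list are given in RefSeq (GRCm38.p6), and 4 of them are shown, with that of *Stil*, a gene of centriole duplication outside the list, because they carry elements known from cell cycle promoters. Each line gives the 150 bases upstream of the start site on the coding strand, with capitals marking a CCAAT box (CCAAT), a cell cycle homology region (TTTGAA) or an E2F site (TTTGGCGC or TTTCCCGC) on either strand.
Ccnb2, chr9:70421555-70421704, minus strand: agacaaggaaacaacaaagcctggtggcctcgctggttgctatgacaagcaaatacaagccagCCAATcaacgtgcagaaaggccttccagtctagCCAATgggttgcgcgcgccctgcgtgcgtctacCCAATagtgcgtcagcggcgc
Bub1, chr2:127831860-127832009, minus strand: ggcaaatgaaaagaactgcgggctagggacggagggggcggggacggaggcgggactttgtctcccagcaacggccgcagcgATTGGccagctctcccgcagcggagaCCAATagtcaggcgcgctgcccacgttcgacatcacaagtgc
Mki67, chr7:135716380-135716529, minus strand: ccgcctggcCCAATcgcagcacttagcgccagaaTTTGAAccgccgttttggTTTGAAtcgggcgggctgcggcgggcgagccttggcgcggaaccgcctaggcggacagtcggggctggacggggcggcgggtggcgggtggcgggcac
Stil, chr4:114999968-115000117, plus strand: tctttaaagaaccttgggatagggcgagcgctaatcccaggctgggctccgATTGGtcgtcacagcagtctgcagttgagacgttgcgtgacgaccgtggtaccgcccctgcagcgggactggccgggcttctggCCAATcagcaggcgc
Mcm5, chr8:75109359-75109508, plus strand: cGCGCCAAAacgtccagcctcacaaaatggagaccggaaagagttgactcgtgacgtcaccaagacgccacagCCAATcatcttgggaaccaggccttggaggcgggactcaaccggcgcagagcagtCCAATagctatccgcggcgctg

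In these windows *Ccnb2* had 3 CCAAT boxes, *Bub1*, *Stil* and *Mcm5* had 2 each, *Mki67* had 1 with 2 cell cycle homology regions, and *Mcm5* alone had an E2F site. Over the whole windows of 250 bases before to 50 bases after the start, a CCAAT box was found in 23 of the 30 promoters of the list (76.7%), in 53.0% of 398 promoters of genes that rose, in 31.4% of 334 promoters of genes that fell in 38.6% of 10747 promoters of genes tested and in 38.3% of all 19965 promoters matched to the annotation. A cell cycle homology region was found in 43.3% of the list, 24.4% of the genes that rose, 8.08% of those that fell, 12.2% of the genes tested and 16.7% of all. An E2F site was found in 20.0%, 10.6%, 2.10%, 3.07% and 1.98% in the same order. The palindromic estrogen response element was found in 0 promoters of the genes that rose or fell in 1 of the genes tested and in 12 of all promoters. These shares describe letters in the windows and are no evidence of binding.

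Genes with a Gm number or Rik clone name as symbol were not ranked. The 15 genes with the largest rises, among those called and with at least 10 CPM in E+P libraries, had log2 fold changes of 3.02 to 3.90, and most belong to cell division. *Stil*, needed for centriole duplication, read 1.73, 2.01, 4.54 and 3.28 CPM in untreated and between 24.8 and 30.1 CPM in E+P libraries, and had the lowest adjusted p of the 15 (log2 3.27 ± 0.31, edgeR adjusted p = 8.4e-05). *Ticrr* (log2 3.37), which helps to fire replication origins, *Kif15* (3.22) and *Cenpe* (3.10), which are mitotic motor proteins, *Nusap1* (3.02), a spindle protein, *Ttk* (3.06), a checkpoint kinase, and *Rad51ap1* (3.05) and *Fignl1* (3.05), which act in recombination repair, rose too. *Iqgap3* (3.40) and *Shcbp1* (3.30) completed the genes linked to dividing cells. The 2 others code for secreted proteins. *Pcsk6*, a proprotein convertase, read 1.45, 0.558, 3.09 and 0.951 CPM in untreated and 28.4, 23.9 and 18.9 CPM in E+P libraries (log2 3.90 ± 0.46, edgeR adjusted p = 3.8e-04). *Scube1* rose from 0.873 ± 0.819 to 10.3 ± 1.37 CPM.

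**Figure D2:**
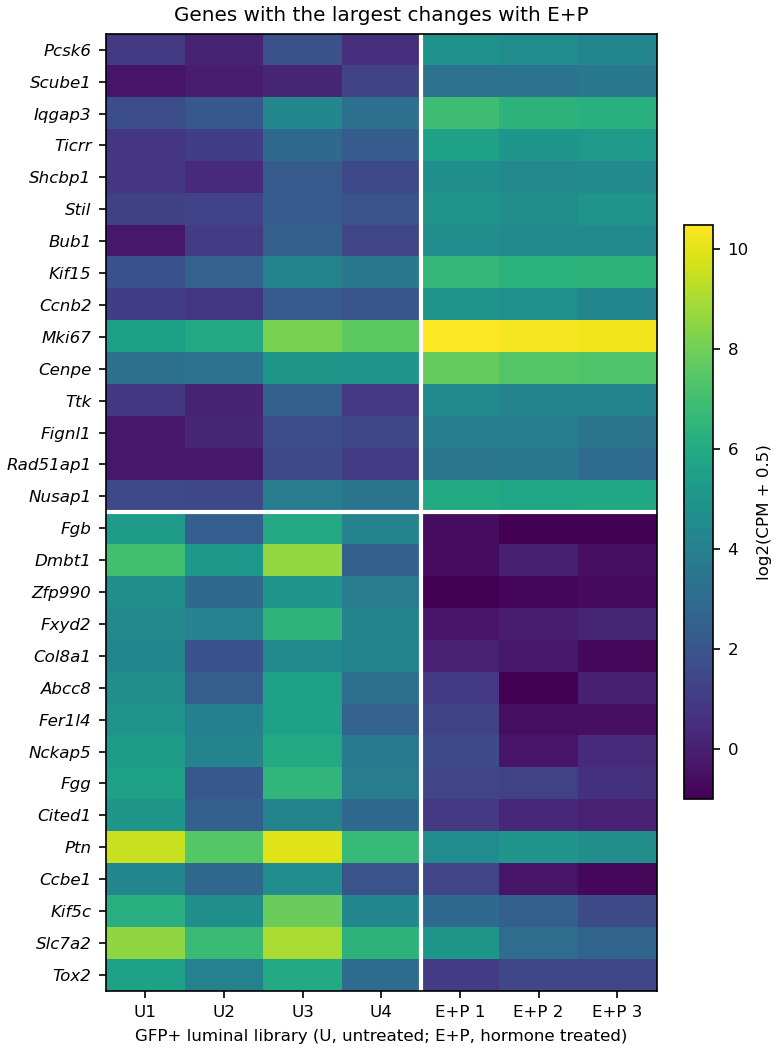
Level of the 15 genes with the largest rises (above the white line) and the 15 with the largest falls (below it) in each of the 7 GFP+ luminal libraries, as log2 of CPM plus 0.5. The 4 untreated libraries (U1 to U4) are left and the 3 E+P libraries right, and in the lower block U1 and U3 are brighter than U2 and U4.

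G1 regulators act before replication. Of 15 tested, *Cdk4*, the kinase partner of D cyclins, rose from 32.4 ± 4.63 to 53.9 ± 3.35 CPM (log2 0.73 ± 0.16, edgeR adjusted p = 0.00897) and 0 fell. This was 1 of 15, against 3.17% of all genes tested, and it was 0 without untreated replicate 1, 2 or 4 or any 1 E+P mouse. The list had a median log2 fold change of 0.50, and 7 genes lay above every untreated library, as did 14.1% of all genes tested. An unadjusted p under 0.05 was found for 8, against 4940 of all 16538 genes tested. *Ccnd1*, a D cyclin, read 174, 117, 229 and 289 CPM in untreated and 337, 327 and 306 CPM in E+P libraries, which did not overlap but did not pass the test (edgeR adjusted p = 0.188).

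Of 15 factors of hormone-sensing cells tested, *Cited1*, *Foxa1* and *Esr1* fell, against 2.78% of all genes tested, *Esrp1* rose and 11 were not called. For the list the median log2 fold change was -1.25, and 10 lay below every untreated library, as did 13.4% of all genes tested. The list summed to 950 to 2799 CPM in untreated and 800 to 899 CPM in E+P libraries. *Esr1*, the estrogen receptor α gene (chr10:4611593-5005614), read 102, 53.8, 109 and 27.0 CPM in untreated and 16.4, 14.7 and 13.5 CPM in E+P libraries (log2 -2.30 ± 0.44, edgeR adjusted p = 0.00508). *Foxa1*, which opens chromatin for the receptor, read 105, 31.2, 114 and 26.8 CPM without and 19.7, 10.4 and 5.91 CPM with hormones (log2 -2.55 ± 0.55, edgeR adjusted p = 0.00931). *Cited1*, a co-activator of the receptor, fell from 15.7 ± 12.8 to 0.888 ± 0.413 CPM. *Prlr*, the prolactin receptor, read 841, 306, 1343 and 200 CPM in untreated and 171, 128 and 116 CPM in E+P libraries, a difference that did not pass the test (log2 -2.28, edgeR adjusted p = 0.0158). *Pgr* overlapped, with 113 ± 117 CPM in untreated and 45.1 ± 22.2 CPM in E+P libraries (edgeR adjusted p = 0.222). For *Esr1*, *Foxa1* and *Prlr*, as for the sum of the list, untreated replicates 1 and 3 were higher than 2 and 4. These calls depended on single mice and on the fit. Of the list, 0 genes were called lower without E+P replicate 1, 2 or 3, 1 without untreated replicate 1 or 3 and 5 without untreated replicate 4. The count was 1 by limma-voom, 9 by DESeq2, 0 in a fit of the 7 libraries alone and 0 without the low-count filter. Of all 16538 genes tested, limma-voom called 353 lower and DESeq2 1050.

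Among 12 estrogen target genes tested, *Cited1* and the retinoic acid receptor *Rara* fell, against 2.78% of all genes tested, and 0 rose. The count was 0 without E+P replicate 1 or 2 and 1 without any other mouse. *Greb1*, a co-factor induced by the receptor, read 3.60, 4.80, 14.7 and 0.865 CPM in untreated and 55.4, 39.9 and 19.7 CPM in E+P libraries, which did not overlap and did not pass the test (edgeR adjusted p = 0.0537).

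Of 8 paracrine mediators tested, 1 was called higher, against 3.17% of all genes tested, and 4 lay above every untreated library, against 14.1%. The count was 0 without E+P replicate 1, 2 or 3. *Adamts18*, a secreted protease that acts on basement membrane, had 0 counts in all 4 untreated libraries and 2.25, 3.07 and 1.60 CPM in E+P libraries, at least 38.0-fold higher when 3 counts over the untreated group are taken as the floor (edgeR adjusted p = 0.00351). *Rspo1*, an enhancer of Wnt signals, read 4.43, 1.67, 12.9 and 20.9 CPM in untreated and 151, 105 and 99.8 CPM in E+P libraries (log2 3.56 ± 0.80, edgeR adjusted p = 0.0121). *Tnfsf11* read 0.415, 0, 0 and 0.173 CPM in untreated and 19.6, 2.12 and 1.33 CPM in E+P libraries (edgeR adjusted p = 0.0131), and the peptide hormone gene *Calca* 0.415, 0, 0.126 and 0 CPM and 68.9, 2.65 and 4.31 CPM (edgeR adjusted p = 0.0127). In both, E+P replicate 1 was far above the other E+P libraries. *Wnt4* (20.3 ± 15.3 and 14.1 ± 11.2 CPM) and *Areg* (79.2 ± 71.8 and 34.4 ± 11.4 CPM) overlapped between groups.

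The receiving side of these signals held the fibroblast growth factor receptors, and 2 of 15 genes tested fell, against 2.78% of all genes tested, and 0 rose. The count was 0 without untreated replicate 1, E+P replicate 2 or E+P replicate 3, and 1 without untreated replicate 2 or E+P replicate 1. *Fgfr2* read 331, 122, 520 and 87.8 CPM in untreated and 32.2, 10.0 and 9.99 CPM in E+P libraries (log2 -3.94 ± 0.65, edgeR adjusted p = 0.00254). *Fgfr1* read 496, 592, 284 and 235 CPM against 75.1, 123 and 147 CPM (log2 -1.80 ± 0.33, edgeR adjusted p = 0.00401), without the order of untreated libraries seen in *Fgfr2*. *Axin2*, a target of Wnt signals, was higher in all E+P libraries (2.81 ± 1.86 and 16.3 ± 5.67 CPM) but was not called (edgeR adjusted p = 0.0117).

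Of 16 luminal progenitor factors, 0 were called by edgeR, 2 by DESeq2 and 1 by limma-voom, and 7 had an unadjusted p under 0.05. Of all 16538 genes tested, edgeR called 985, DESeq2 2035 and limma-voom 972, and 4940 had an unadjusted p under 0.05. *Elf5*, a transcription factor of alveolar progenitors, read 218 ± 61.4 CPM in untreated and 184 ± 1.22 CPM in E+P libraries, and the receptor kinase *Kit* 998 ± 202 and 746 ± 67.3 CPM. *Aldh1a3*, a retinaldehyde dehydrogenase, read 899, 821, 355 and 572 CPM against 203, 132 and 214 CPM, with no overlap (log2 -1.85, edgeR adjusted p = 0.024).

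In the prolactin pathway, *Stat5a* and *Stat5b* rose, against 3.17% of all genes tested, and 0 of the 15 genes tested fell. Without E+P replicate 2, 1 of these calls was left, and without each other mouse 2. *Stat5a* (chr11:100859351-100885169) read 66.9, 66.4, 105 and 91.7 CPM in untreated and 279, 320 and 264 CPM in E+P libraries (log2 1.80 ± 0.17, edgeR adjusted p = 8.4e-05). *Stat5b* rose from 99.5 ± 10.8 to 156 ± 7.32 CPM (log2 0.65 ± 0.10, edgeR adjusted p = 0.00129). The genes are near-identical neighbours, so reads could be split between them.

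Milk genes did not move as a group: of 18 tested, *Ltf* fell, against 2.78% of all genes tested, and 0 rose. By level, 4 lay above every untreated library, as did 14.1% of all genes tested, and 7 below, as did 13.4%. The count of genes called lower was 0 without E+P replicate 1, 2 or 3 and 3 without untreated replicate 2. *Ltf*, the iron-binding lactoferrin (chr9:111019271-111042767), read 772, 450, 367 and 692 CPM in untreated and 48.4, 23.2 and 35.1 CPM in E+P libraries (log2 -4.00 ± 0.58, edgeR adjusted p = 0.00142). The caseins were uneven. *Csn2* read 0.139, 0, 0 and 92.7 CPM in untreated and 186, 1.18 and 3.39 CPM in E+P libraries, and *Csn1s1* 1.80, 0.558, 2.08 and 152 CPM and 774, 102 and 115 CPM. For *Csn2* and *Csn1s1*, untreated replicate 4 and E+P replicate 1 were thus the high libraries of their groups. *Csn3* went the other way, from 815 ± 167 to 408 ± 45.2 CPM without overlap, and was not called (edgeR adjusted p = 0.093). Of 28 genes of milk fat and fatty acid synthesis, *Fasn*, the fatty acid synthase (125 ± 30.5 to 302 ± 42.8 CPM, log2 1.27 ± 0.20, edgeR adjusted p = 0.00151), and the desaturase *Scd2* (29.2 ± 11.2 to 95.6 ± 18.0 CPM) rose, against 3.17% of all genes tested, and 0 fell. This count was 0 without E+P replicate 2 and 1 without untreated replicate 1 or 2 or E+P replicate 1 or 3. Of 20 transporters, *Abcg2*, which secretes riboflavin into milk, rose from 6.68 ± 1.76 to 14.1 ± 0.715 CPM, and the water channel *Aqp3* fell from 29.0 ± 12.5 to 6.57 ± 3.53 CPM. Of all genes tested 3.17% rose and 2.78% fell. Of the transporters 0 were called higher without untreated replicate 1 or 2 or any 1 E+P mouse. The count called lower was 0 without untreated replicate 1 or 3 or E+P replicate 2 or 3. Of 20 genes of cholesterol synthesis and 23 of protein folding in the endoplasmic reticulum, 0 were called by edgeR and 0 by DESeq2, and 3 in each list had an unadjusted p under 0.05. Of all 16538 genes tested, DESeq2 called 2035 and 4940 had an unadjusted p under 0.05.

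**Figure D3:**
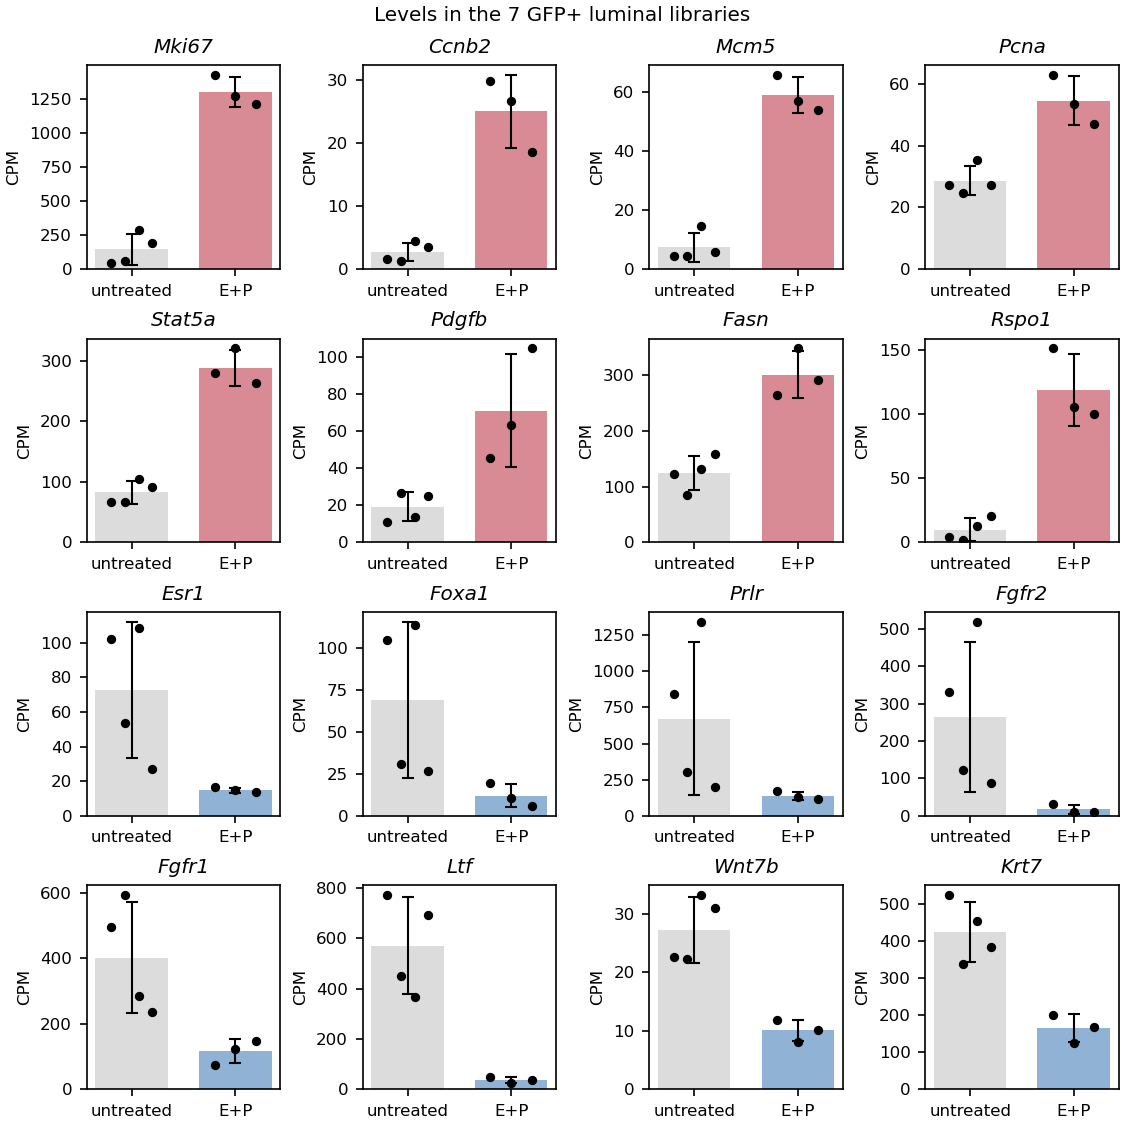
Level of 16 genes in the 7 GFP+ luminal libraries, in CPM on linear axes from 0. Bars are group means, error bars the SD and points the libraries (n = 4 untreated, n = 3 E+P), *Mki67* spans 44.7 to 284 CPM in untreated and 1216 to 1426 CPM in E+P libraries, while *Prlr* and *Rspo1* are shown although they did not pass the test.

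Ligands of the PDGF receptors were examined because the lineage is marked by *Pdgfra*. Of 7 PDGF genes tested, *Pdgfb* (chr15:79995874-80014977) rose, against 3.17% of all genes tested, and 0 fell. The count was 0 without E+P replicate 2 or 3 and 2 without untreated replicate 2. *Pdgfb* read 11.1 to 26.7 CPM in untreated and 45.5, 63.2 and 105 CPM in E+P libraries (log2 1.90 ± 0.33, edgeR adjusted p = 0.00263). *Pdgfc* was higher in each E+P library (67.5 ± 11.3 and 100.1 ± 12.9 CPM) but did not pass the test (edgeR adjusted p = 0.0235), and *Pdgfa* overlapped (14.9 ± 1.10 and 12.6 ± 1.97 CPM).

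Of 19 Wnt genes, *Znrf3*, a ubiquitin ligase that removes Wnt receptors, rose from 16.0 ± 3.05 to 30.3 ± 3.97 CPM, and the ligand *Wnt7b* fell from 27.2 ± 5.67 to 10.0 ± 1.85 CPM (log2 -1.44 ± 0.17, edgeR adjusted p = 3.4e-04). The Wnt genes called higher were 0 without untreated replicate 1 or 4 or any 1 E+P mouse. Among 21 genes of integrins and basement membrane, the laminin chain *Lamc1* rose from 88.1 ± 3.89 to 158 ± 21.4 CPM and *Lama3*, of the laminin that anchors epithelium, fell from 123 ± 41.2 to 24.3 ± 4.48 CPM. Of 19 tight junction and polarity genes, *Patj* fell (251 ± 27.1 to 182 ± 10.6 CPM) and 0 rose. In each of these 3 lists 1 gene or 0 was called in a direction, against 3.17% higher and 2.78% lower of all genes tested. With E+P replicate 1, 2 or 3 left out, 0 genes of the integrin list and 0 of the tight junction list were called, and *Lamc1* was also lost without untreated replicate 2 or 3, *Lama3* without untreated replicate 1 and *Patj* without untreated replicate 1, 2 or 4. Of the 10 luminal markers, the keratin *Krt7* (426 ± 81.5 to 165 ± 37.7 CPM) and the transcription factor *Elf3* (117 ± 16.5 to 54.5 ± 1.94 CPM) fell, against 2.78% of all genes tested, and 0 rose. The count of luminal markers called lower was 1 to 3 with a mouse left out. Of 19 chemokine and defence genes, *Ltf*, *Cxcl2* and the antibacterial lectin *Reg3g* fell, against 2.78% of all genes tested, and 0 rose. This count was 0 without E+P replicate 1, 2 or 3 and 1 without untreated replicate 1. *Reg3g* had 0.441 to 0.969 CPM in untreated libraries and 0 counts in the E+P libraries, at least 12.3-fold lower when 3 counts over the E+P group are taken as the floor.

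By edgeR 0 genes were called in 5 further lists. In 25 interferon response and MHC class I genes, 12 had an unadjusted p under 0.05 and DESeq2 called 5. In 16 Notch genes these counts were 7 and 2, in 9 EGF family ligands 1 and 1, in 4 MHC class II genes 1 and 1, and in 23 immediate early genes, a sign of tissue dissociation, 1 and 0. Of all 16538 genes tested they were 4940 and 2035.

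**Figure D4:**
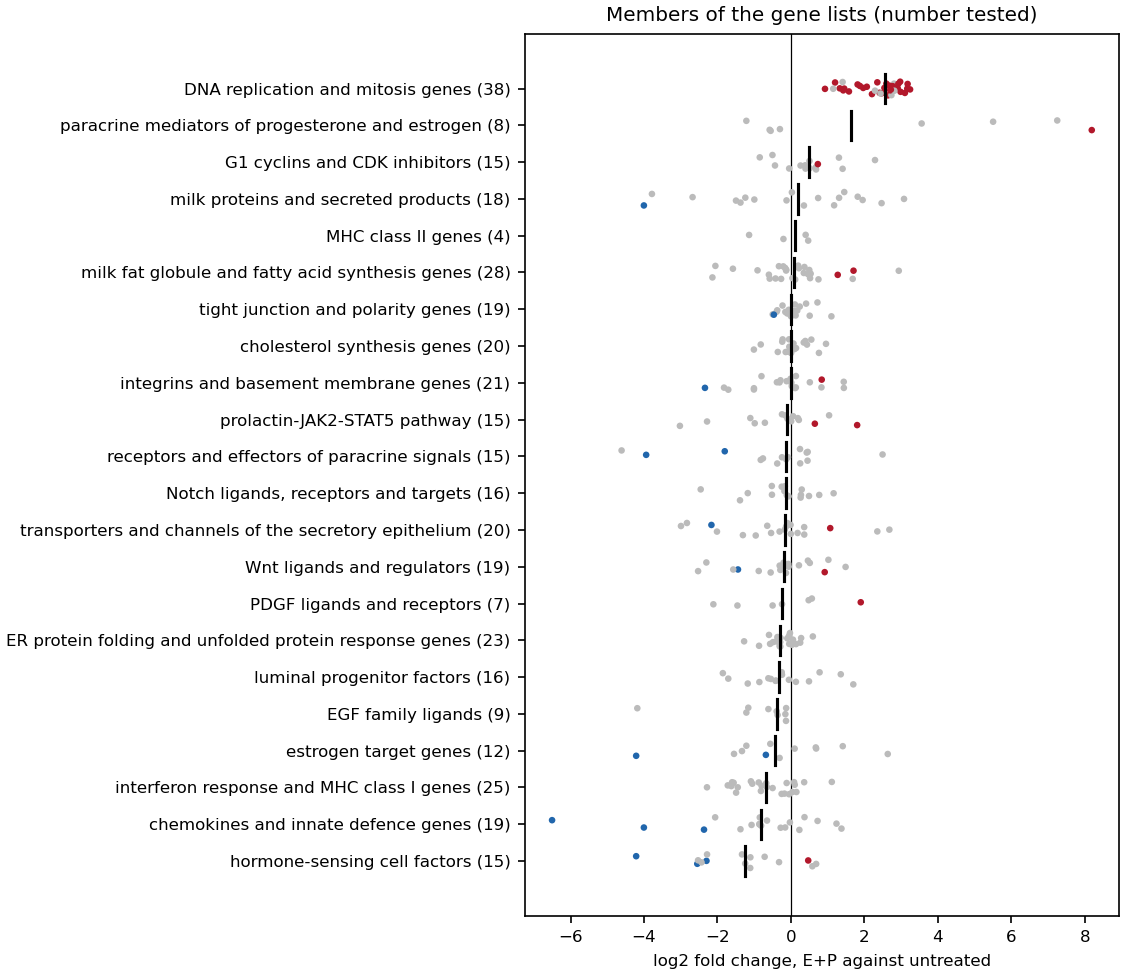
Log2 fold change with E+P (x axis) of the tested members of 22 gene lists (y axis, number tested in brackets), with each point a gene and the black bar the median of the list. Red points were called higher, blue points lower and grey points were not called; the replication and mitosis genes at the top all lie right of 0 with a median of 2.57, and the hormone-sensing factors at the bottom have a median of -1.25.

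The ranking of falls left out genes with overlapping groups and, as for the rises, those with a Gm or Rik symbol. The 15 genes with the largest falls, among those called and with at least 10 CPM in untreated libraries, had log2 fold changes of -9.35 to -4.05. *Fgb* and *Fgg*, which code for chains of fibrinogen, fell with them. *Fgb* read 38.5, 4.91, 59.7 and 17.2 CPM in untreated libraries and had 2 counts in all E+P libraries together, 895-fold lower with an exact 95% counting interval of 247 to 7397. *Fgg* fell from 39.4 ± 40.1 to 1.72 ± 0.556 CPM. *Dmbt1*, a secreted glycoprotein of mucosal defence, read 130, 34.7, 396 and 5.45 CPM in untreated and 0.268 ± 0.177 CPM (SD, n = 3) in E+P libraries (edgeR adjusted p = 0.00574). *Ptn*, the growth factor pleiotrophin, read 730, 173, 958 and 101 CPM against 23.4, 30.7 and 25.2 CPM (log2 -4.21 ± 0.83, edgeR adjusted p = 0.00601). *Slc7a2*, a carrier of cationic amino acids, read 375, 114, 518 and 85.6 CPM against 33.6, 8.08 and 6.09 CPM. *Fxyd2*, a regulator of the sodium pump, *Abcc8*, a subunit of a potassium channel, *Col8a1*, a collagen, *Kif5c*, a kinesin, *Tox2*, a nuclear factor, *Ccbe1*, a factor of lymphatic growth, and *Cited1* fell too, with *Nckap5*, *Fer1l4* and *Zfp990*. *Zfp990* belongs to a family of close copies, so its counts are uncertain.

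In all 15 of these genes, untreated replicates 1 and 3 were above replicates 2 and 4. All 15 were also higher in untreated tdTomato+ than in untreated GFP+ luminal cells, by 3.14 to 6.97 times (median 5.07). *Ptn*, for example, read 2350 ± 520 CPM (SD, n = 4) in untreated tdTomato+ cells and 253 ± 161 CPM (n = 3) after E+P, and *Cited1* 79.8 ± 43.3 and 11.6 ± 1.54 CPM. Of all 460 genes that fell in GFP+ cells, 66.3% had a higher mean in untreated tdTomato+ than in untreated GFP+ cells, as did 32.8% of the genes that rose and 50.8% of all genes tested. The part of cells like the tdTomato+ cells in the untreated GFP+ libraries was not tested.

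**Figure D5:**
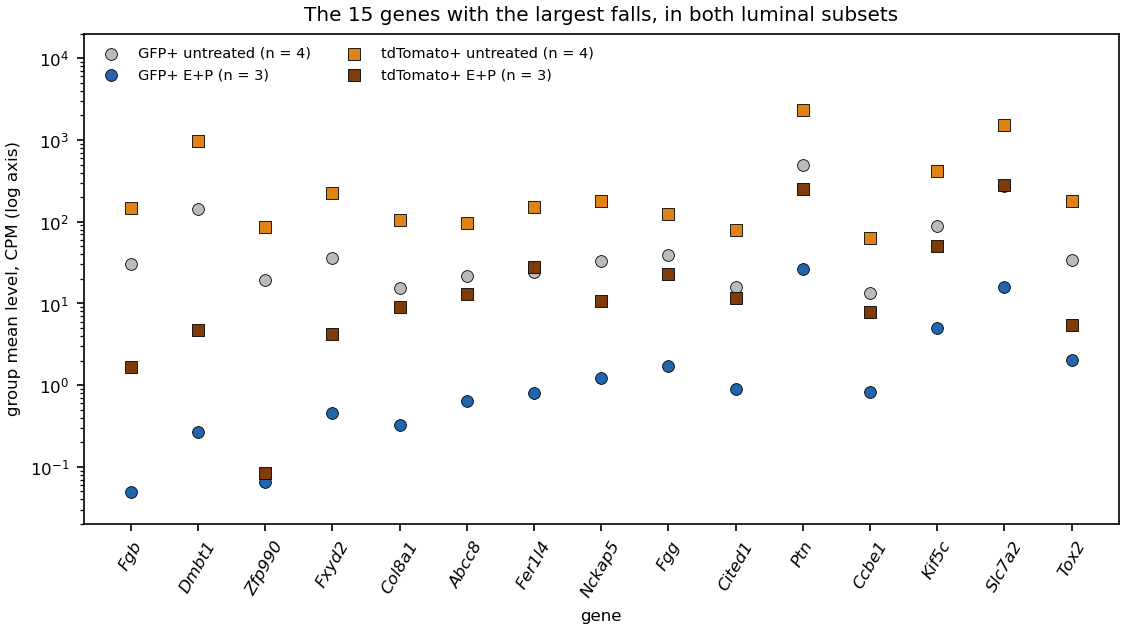
Group mean level in CPM (log axis) of the 15 genes with the largest falls, in GFP+ (circles) and tdTomato+ (squares) luminal cells of 4 untreated mice and of 3 mice given E+P. For each gene the untreated tdTomato+ mean lies above the untreated GFP+ mean, and both means are lower after E+P.

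Whether the response differed from that of tdTomato+ luminal cells of the same mice was tested as an interaction of subset and treatment. It was called for 375 genes (2.27% of those tested), with 129 more positive and 246 more negative in GFP+ cells. Of the 985 genes changed in GFP+ cells, 90 were among them. None of the 30 genes with the largest changes was, the lowest adjusted p by edgeR being 0.0787 among the genes that rose and 0.155 among those that fell. *Mki67*, for example, read 70.1 ± 39.2 CPM in untreated and 253 ± 55.4 CPM in E+P-treated tdTomato+ cells, and its response differed by a log2 of 1.32 ± 0.89 (SE, edgeR adjusted p = 0.423). Of the replication and mitosis genes, *Aurka* (log2 difference 2.57, edgeR adjusted p = 0.00512) and *Mcm6* (2.15, 6.8e-04) had a more positive response in GFP+ cells. Of the hormone-sensing factors, 0 of 15 differed by edgeR. *Krt7* fell in GFP+ cells and read 789 and 727 CPM in untreated and E+P-treated tdTomato+ cells (log2 difference -1.25, edgeR adjusted p = 0.00434).

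The 10 genes named for the largest differences between the subsets were not called in GFP+ cells themselves. *Esrrg*, an orphan receptor related to the estrogen receptors, averaged 11.4 ± 3.63 and 11.8 ± 3.04 CPM in untreated and E+P-treated GFP+ cells, against 30.8 ± 4.67 and 1.64 ± 0.831 CPM in tdTomato+ cells. *Nr3c2*, the mineralocorticoid receptor, averaged 36.6 ± 7.17 and 25.9 ± 5.38 CPM in GFP+ cells, against 71.6 ± 5.37 and 5.36 ± 1.79 CPM. The responses of *Sp100*, *Gprasp2* and *Uba7* were also more positive in GFP+ cells. *Col6a1*, a chain of collagen VI, averaged 5.01 ± 2.65 and 20.6 ± 12.4 CPM in GFP+ cells, against 5.06 ± 3.56 and 516 ± 226 CPM in tdTomato+ cells, and the responses of *Pla2g7*, *Slc39a8*, *Ccn5* and *Mreg* were also more negative in GFP+ cells. Untreated and E+P-treated tdTomato+ cells averaged 0.136 and 17.7, 0.628 and 19.1, 5.77 and 69.8, and 0.587 and 38.9 CPM for these genes. GFP+ cells averaged 0.578 and 0.495, 5.12 and 4.91, 14.1 and 5.84, and 0.762 and 2.38 CPM. In limma-voom 755 genes differed when mice entered as a random block. Without untreated replicate 1 the count was 153, without untreated replicate 3 it was 247, and without E+P replicate 1, 2 or 3 it was 208, 33 or 38. Scaling by library size alone made 55.0% of the differing genes more positive in GFP+ cells, against 34.4%.

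GFP+ stroma shares the *Pdgfra*-Cre label and the mice. Its response differed from that of GFP+ luminal cells for 180 of 19569 genes tested (0.920%), with 83 more positive and 97 more negative in luminal cells, and 142 of the 180 were among the genes changed in luminal cells. *Pcsk6* rose from 1.37 ± 1.01 to 21.6 ± 4.31 CPM in luminal cells and averaged 144 ± 31.3 and 43.9 ± 11.2 CPM in untreated and E+P-treated stroma (log2 difference 5.59 ± 0.73, edgeR adjusted p = 2.6e-04). *St6gal1*, a sialyltransferase, rose from 4.69 ± 1.56 to 38.2 ± 4.82 CPM in luminal cells and averaged 5.48 ± 2.28 and 1.51 ± 1.00 CPM in stroma. *Tnfrsf19*, *Nup210* and the cell cycle repressor *E2f7* were also more positive in luminal cells, but *Nup210* and *E2f7* were not called in luminal cells themselves. *Nup210* averaged 58.9 ± 10.9 and 74.5 ± 3.72 CPM in untreated and E+P-treated luminal cells. In stroma it averaged 0.817 ± 0.824 and 0.0164 ± 0.0284 CPM, so its difference rests on low stroma counts. *Ror2*, a receptor of Wnt5a, fell to 1 count over the 3 E+P luminal libraries and averaged 33.2 ± 8.37 and 61.5 ± 10.1 CPM in stroma. *Ccdc162*, *Mgat3*, *Egflam* and *Nckap5* were more negative in luminal cells too. *Ccdc162*, *Mgat3* and *Egflam* were not called in luminal cells themselves (edgeR adjusted p = 0.0153, 0.0179 and 0.0123), and their stroma means were higher with E+P. *Nckap5* was called lower in luminal cells, and its mean was also lower in E+P-treated than in untreated stroma (33.65 and 53.89 CPM). The count of 180 differing genes was 52 without untreated replicate 1 and 28, 8 or 20 without E+P replicate 1, 2 or 3. Scaling by library size alone made 25.7% of the differing genes more positive in luminal cells, against 46.1%.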

How the data were processed

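Read counts per gene, which the authors deposited without normalization for 28 libraries, were the starting point. Per the submitters' processing notes STAR 2.5.2a was used, and the strand setting of the counting and the GENCODE release are not given in the sources used here, so overlapping and antisense genes are uncertain. Symbols and GRCm38 coordinates came from GENCODE M21, in which 50376 of 50600 IDs were found. Groups came from the labels.

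Counts were scaled by TMM, filtered with filterByExpr and tested with the quasi-likelihood test of edgeR 4.0.16 (R 4.3.3), two-sided, in a fit of the 14 luminal libraries, or of all 28 for the stroma. Genes were called at a Benjamini-Hochberg adjusted p under 0.01. SEs are the log2 fold change divided by the square root of F. Named genes are members of lists, and up to 15 in each direction with the largest change among those called. These 15 had a mean of 10 CPM or more in the group with more and no overlap. Genes with a Gm number, a Rik clone name or a bare gene ID as symbol were left out. For differences between subsets up to 5 in each direction were named by the same rule, but without the overlap condition. The subsets' own levels in stroma comparisons were scaled over all libraries. Members and lists were chosen with earlier results of these data known. GFP+ and tdTomato+ cells of the same mouse share the animal, and their deviations from group means correlated at 0.056 to 0.368 in 7 pairs. Replicates are separate mice. Alternatives were other scalings, filters, thresholds, blocks and sets of libraries, DESeq2 1.42.0 and limma 3.58.1. The luminal fit was tested on simulated counts for E+P against untreated in GFP+ cells only. The simulated libraries were independent and had the same dispersion for every gene. The tests of differences from tdTomato+ cells and from stroma were not simulated.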

Additional observations from a re-analysis of the deposited data

Results flagged for a closer look

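Chance alone sets about 1 in 20 groups of 4 apart by the gap test used here. In the untreated GFP+ luminal libraries, 1 library stood apart for *Fxyd2* (replicate 3, gap over range 0.937) and for *Ttk* (replicate 3, gap over range 0.83).

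The E+P response of GFP+ luminal cells differed from that of tdTomato+ luminal cells, by the interaction test of edgeR, by a log2 of 4.21 for *Esrrg*, 3.28 for *Sp100*, 3.23 for *Nr3c2*, 3.07 for *Gprasp2* and 2.71 for *Uba7*. It was more negative by a log2 of -6.82 for *Pla2g7*, -4.93 for *Slc39a8*, -4.90 for *Ccn5*, -4.62 for *Col6a1* and -4.62 for *Mreg*. From the response of GFP+ stroma it differed by a log2 of 6.17 for *Tnfrsf19*, 5.59 for *Pcsk6*, 5.36 for *Nup210*, 4.85 for *St6gal1* and 4.12 for *E2f7*. The differences were -7.63 for *Ror2*, -4.67 for *Ccdc162*, -4.53 for *Mgat3*, -4.24 for *Egflam* and -4.18 for *Nckap5*. That of *Nup210* rests on low stroma counts, with means of 0.817 and 0.0164 CPM in untreated and E+P-treated stroma.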

How the results depend on the processing

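For E+P in GFP+ luminal cells, 985 genes were called, and the count was 2035 with the Wald test of DESeq2, 2475 at an adjusted p under 0.05, 616 with a log2 fold change of at least 1 as well, and 560 in a fit of the 7 libraries alone. Leaving out each mouse gave 169 to 962. With limma-voom 63.7% of the calls were higher. For the difference from tdTomato+ luminal cells (375), DESeq2 gave 1014, a mouse block in limma-voom 755, an adjusted p under 0.05 gave 1089 and leaving out each mouse 33 to 314. For the difference from GFP+ stroma (180), these were 622 by DESeq2, 648 at 0.05, 300 in a fit of the 14 GFP+ libraries and 8 to 211. The cause of these changes was not tested, beyond fewer libraries or another threshold. The mouse as a fixed block in edgeR, chosen after seeing the data, gave 477 and 165. Replicate numbers of untreated and E+P mice name different animals, whose deviations correlated at -0.182 to 0.036 over 3 pairs, and a replicate block gave 904, 438 and 181 calls.

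The 30 genes with the largest changes kept their direction in each alternative, but not their calls. Of the 30, 17 stayed called with limma-voom or a mouse block in it, 13 without the low-count filter, 11 in a fit of the 7 libraries alone and 4 to 25 with a mouse left out. *Fgg* lost its call in 13 of 20 alternatives, *Kif5c* in 12, *Dmbt1*, *Ccbe1* and *Tox2* in 10 each, and *Nusap1* and *Col8a1* in 9 each. Genes not called in GFP+ cells turned: *Esrrg* and *Gprasp2* read -0.0738 and -0.0126 with library size only, and *Slc39a8* 0.11 with limma-voom, 0.0764 with limma-trend and 0.11 with the mouse block in limma-voom. Leaving out mice gave -0.15 to 0.22 for *Esrrg*, -0.12 to 0.37 for *Gprasp2*, -1.24 to 0.26 for *Pla2g7* and -0.52 to 0.37 for *Slc39a8*. Depth limited genes near the floor, such as *Adamts18* and *Reg3g*.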
